A study of Mus musculus with 2 samples.

Results

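The genes described here are Cxcl12, which encodes the chemokine CXCL12, and the genes of its receptors, Cxcr4 and Ackr3. They were taken by symbol from the gene lists of both count matrices and are 3 of the 31054 features measured. The study sequenced single cells from the bladder of 1 male mouse aged 25 months, with the genotype p16-CreERT2/R26-LSL-tdTomato. In this mouse the promoter of p16, a cell cycle inhibitor widely used to mark senescent cells, drives a Cre recombinase that acts only after tamoxifen, and the red protein tdTomato then stays on in every cell in which Cre was active. Tamoxifen was injected on 5 consecutive days, and the bladder was taken 2 weeks later. Living CD45-negative cells, CD45 being the common antigen of leukocytes, were then sorted by tdTomato into the Tom+ library (with the fluorescence) and the Tom- library (without it), and both were sequenced from the 3′ end of the transcripts. The libraries therefore share the genotype, the age, the tamoxifen and the animal, and they differ in the lineage mark. The mark records p16-driven Cre activity at the time of tamoxifen and is not itself a test of senescence, and the sort removed the leukocytes of the tissue.

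CXCL12 is a chemokine made mainly by stromal and vascular cells, where it keeps and guides cells that carry its receptor CXCR4. CXCR4 is a G protein-coupled receptor that signals through inhibitory G proteins and is best known from leukocytes, blood-forming cells and the tip cells of growing vessels. ACKR3, also called CXCR7, binds CXCL12 with high affinity but signals through arrestins and takes the chemokine up for degradation, so that it acts as a scavenger that sets how much CXCL12 stays outside cells. The study's title puts CXCL12 secreted by senescent fibroblasts of the aged bladder at the centre of its question.

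All 3 genes are protein-coding, and no other annotated gene overlaps them in GRCm38. Cxcl12 (ENSMUSG00000061353) lies on chromosome 6, plus strand, from 117168535 to 117181367 and has 4 annotated transcripts, of which 3 are coding. Cxcr4 (ENSMUSG00000045382) lies on chromosome 1, minus strand, from 128588199 to 128592293, and Ackr3 (ENSMUSG00000044337) lies on the plus strand of the same chromosome from 90203980 to 90216751. The 250 bases before each RefSeq start site in GRCm38.p6 are printed 5′ to 3′ along the strand of the gene, since the 3 genes differed most in which cell classes held them. The windows are chr6:117168285-117168534 (+) for Cxcl12, chr1:128592300-128592549 (-) for Cxcr4 and chr1:90203730-90203979 (+) for Ackr3. Capitals mark GC boxes (GGGCGG) and TATA boxes (TATAAA), both searched on both strands.
Cxcl12: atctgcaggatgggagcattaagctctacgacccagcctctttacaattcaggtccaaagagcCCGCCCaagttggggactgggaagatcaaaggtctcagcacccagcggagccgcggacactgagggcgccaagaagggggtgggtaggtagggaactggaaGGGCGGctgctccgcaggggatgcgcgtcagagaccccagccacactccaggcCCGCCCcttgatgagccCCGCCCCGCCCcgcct
Cxcr4: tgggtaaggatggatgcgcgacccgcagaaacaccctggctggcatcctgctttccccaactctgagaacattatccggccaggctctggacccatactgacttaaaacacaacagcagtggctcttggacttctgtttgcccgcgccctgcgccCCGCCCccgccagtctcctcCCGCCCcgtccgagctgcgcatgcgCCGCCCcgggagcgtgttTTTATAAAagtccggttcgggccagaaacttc
Ackr3: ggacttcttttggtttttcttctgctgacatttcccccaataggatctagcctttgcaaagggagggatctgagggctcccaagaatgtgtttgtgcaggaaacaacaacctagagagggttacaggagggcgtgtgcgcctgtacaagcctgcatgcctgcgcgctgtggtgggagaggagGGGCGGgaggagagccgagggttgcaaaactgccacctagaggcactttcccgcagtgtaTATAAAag
The Cxcl12 window held 5 GC boxes and no TATA box, with 14 CpG and a GC content of 64.4%. Cxcr4 held 3 GC boxes, 19 CpG and a GC content of 61.2%, and its 2 TATA box matches, on opposite strands, overlap each other. Ackr3 held 1 GC box and 1 TATA box, with 7 CpG and a GC content of 54%. Across 32851 RefSeq promoters of the same length, 32.7% held a GC box and 12.4% a TATA box, and the medians were 6 CpG and a GC content of 52.4%. The core of the hypoxia response element (ACGTG or GCGTG, both strands), found in 38.6% of these promoters, had 1 match each in the Cxcr4 and Ackr3 windows and none in the Cxcl12 window. Such matches describe letters and are not binding sites.

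The Tom+ library held 2783 barcodes and 34455896 UMIs (unique molecular identifiers, which count captured transcripts), and the Tom- library held 13551 barcodes and 197232860 UMIs. Filters on depth, genes and doublets left 1881 Tom+ and 9886 Tom- cells, with medians of 11579 and 12773 UMIs per cell. The libraries shared 966 barcodes, which is 34.7% of the Tom+ and 7.13% of the Tom- barcodes. Among used cells, 346 Tom+ cells (18.4%) and 657 Tom- cells (6.65%) had a shared barcode. Values without them are given for part of the results, and other values may shift without them as well. Cells were clustered with the 3 genes, tdTomato and Cdkn2a left out, and clusters were named from marker genes. Fibroblast-like cells (703 Tom+ and 4133 Tom- cells) held 9 of 9 fibroblast markers in at least 25% of cells in both libraries. Endothelial-like cells, meaning blood vessel endothelium (173 Tom+ and 684 Tom- cells), had 8 of 8 blood endothelial markers, which summed to 5192 CPM in Tom+ against 6738 CPM in Tom-. As a check of the sort, tdTomato itself stood at 1798 CPM in Tom+ against 18.3 CPM in Tom- among fibroblast-like cells, and at 2075 CPM in Tom+ against 89.2 CPM in Tom- among endothelial-like cells. With 1 library per group from 1 mouse there is no test between the groups. Every interval is a 95% interval for counting error alone, and the spread between animals is unknown. CPM is the usual scaling of the UMIs of a gene to all UMIs summed over the cells of a class, so levels are compared within a gene and not between genes.

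Cxcl12, the ligand, was carried by fibroblast-like and endothelial-like cells, and the difference between the libraries ran in opposite directions in these classes. In fibroblast-like cells it stood at 701 CPM in Tom+ (4581 UMIs, interval 680 to 721) and at 374 CPM in Tom- (17824 UMIs, 369 to 380), a ratio of 1.87 (1.81 to 1.93). In endothelial-like cells it stood at 299 CPM in Tom+ (516 UMIs, 273 to 326) and at 916 CPM in Tom- (4662 UMIs, 890 to 943), a ratio of 0.326 (0.297 to 0.357). Fibroblast-like cells were thus the higher class in Tom+ and endothelial-like cells the higher class in Tom-. Without shared barcodes the ratios were 2.01 and 0.370. The difference between the ratios of the classes was not tested, since each rests on 1 pair of libraries.

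Summed over every used cell, the ligand stood at similar levels, but the libraries also differed in their mix of classes. Fibroblast-like cells held 19.8% of all UMIs in Tom+ and 29.0% in Tom-, endothelial-like cells 5.24% in Tom+ and 3.102% in Tom-, and umbrella cells of the urothelium 43.9% in Tom+ and 31.7% in Tom-. All Tom+ cells together had 163 CPM of Cxcl12 against 171 CPM for all Tom- cells, with a ratio of 0.954 (0.927 to 0.983). Without shared barcodes the Tom+ cells stood at 204 CPM against 169.6 CPM for the Tom- cells, with a ratio of 1.20 (1.17 to 1.24), so the direction over all cells turned with the shared barcodes. Of the Cxcl12 UMIs in used cells, fibroblast-like cells held 85.2% in Tom+ and 63.6% in Tom-, and they made up 37.4% of Tom+ and 41.8% of Tom- cells. Endothelial-like cells held 9.59% of the Cxcl12 UMIs in Tom+ and 16.6% in Tom-. An unnamed cluster led by Car3, Tnc and Hhip held a further 1.67% in Tom+ and 11.6% in Tom-, with 26 Tom+ and 873 Tom- cells at 264 CPM and 237 CPM.

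**Figure D1:**
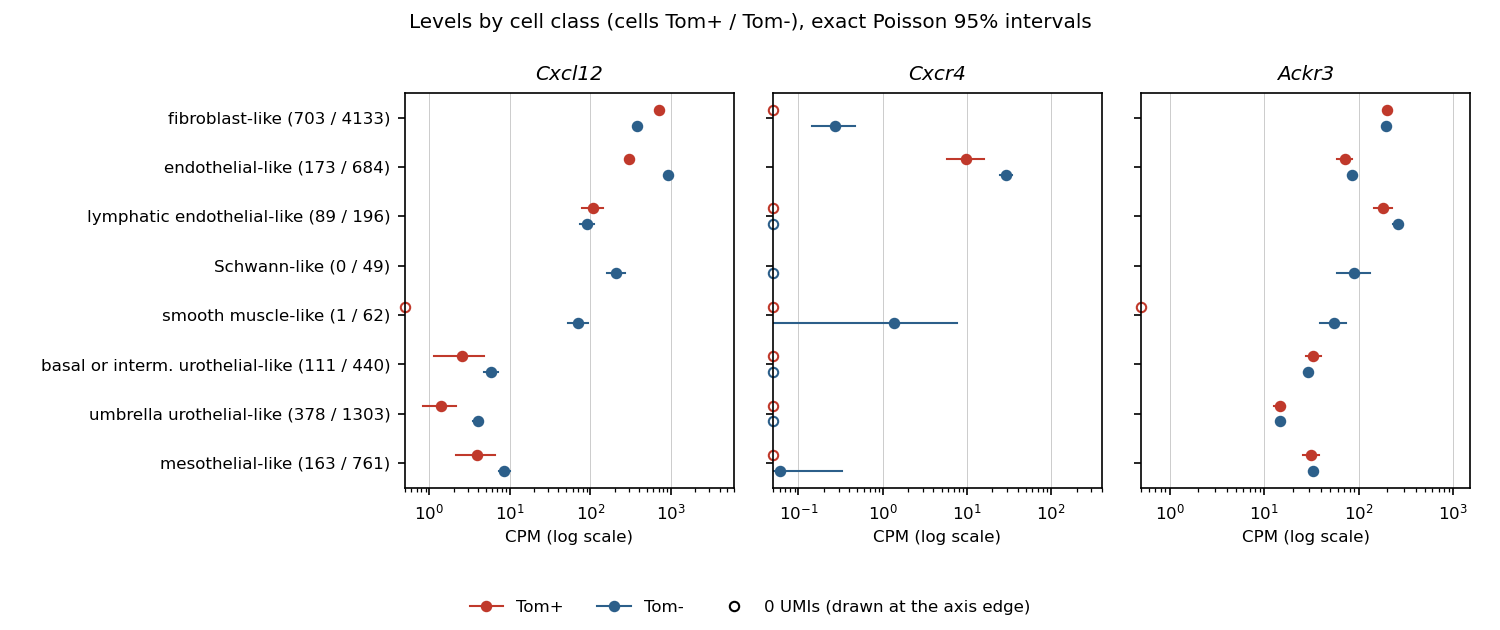
CPM (log axes) of Cxcl12, Cxcr4 and Ackr3 in 8 cell classes, with Tom+ (red) above Tom- (blue), exact Poisson 95% intervals as lines and cell numbers beside the class names. Cxcl12 in Tom+ lies right of Tom- in fibroblast-like cells (701 against 374 CPM) and left of it in endothelial-like cells (299 against 916 CPM), Cxcr4 stands out in endothelial-like cells alone, and open circles are classes with 0 UMIs.

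The other classes held less of the ligand. Lymphatic endothelial-like cells, which line lymph vessels, had 107 CPM in Tom+ (48 UMIs) and 90.6 CPM in Tom- (109 UMIs), and the interval of the ratio, 0.821 to 1.67, spans 1. Schwann-like cells, found in Tom- only (49 cells), stood at 210.1 CPM, and the 62 smooth muscle-like Tom- cells at 70.2 CPM. Umbrella urothelial-like cells, the surface layer of the urothelium, had 1.38 CPM in Tom+ (20 UMIs) and 3.99 CPM in Tom- (208 UMIs), and basal or intermediate urothelial-like cells had 2.52 CPM in Tom+ against 5.85 CPM in Tom-. These urothelial values can be set beside the fibroblast markers found in the same cells. Umbrella cells held fibroblast markers at 0.169% of the fibroblast-like sum in Tom+ and at 0.734% in Tom-, and the same shares of fibroblast-like Cxcl12 come to 1.19 CPM and 2.75 CPM. The measured Tom- interval, 3.47 to 4.58 CPM, lies above the latter. For basal or intermediate cells the calculation gives 3.82 CPM in Tom+, above the measured level, and 4.11 CPM in Tom-, below it. The same calculation gives 3.17 CPM for Tom+ and 9.56 CPM for Tom- endothelial-like cells, far below their measured levels. It uses fibroblast markers alone, and the source of the Cxcl12 counts in these classes was not tested. Mesothelial-like cells had 3.91 CPM in Tom+ against 8.59 CPM in Tom-, and all 14 Tom+ UMIs there lay in shared barcodes.

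The number of cells with the ligand pointed the same way as its level in these classes. Every cell was thinned to 2000 UMIs, and 200 Tom+ and 822 Tom- cells were too shallow for this. Cxcl12 after thinning was found in 54.9% of Tom+ fibroblast-like cells (51.0 to 58.8%) and in 37.8% of Tom- ones (36.3 to 39.4%). The unthinned shares were 76.4% in Tom+ and 71.0% in Tom-. In endothelial-like cells the thinned share was 34.2% in Tom+ and 55.5% in Tom-, and the unthinned share 59.5% in Tom+ and 72.2% in Tom-. Umbrella cells, a class with little of the gene, had thinned shares of 0.265% in Tom+ and 0.697% in Tom- at median depths of 38547 and 39195 UMIs, against medians of 8135 and 11205 UMIs in fibroblast-like cells. The ligand was also unevenly spread among fibroblasts. The tenth of fibroblast-like cells with most Cxcl12 UMIs held 47.4% of them in Tom+ and 52.6% in Tom-, and the richest cell held 80 UMIs in Tom+ and 119 in Tom-.

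Fibroblast-like cells fell into 8 sub-clusters, made without the 3 genes, and Cxcl12 was concentrated in the same sub-cluster in both libraries. That sub-cluster, led by Dner, Gucy1a1 and Kcnn3, had 1484 CPM in Tom+ (3323 UMIs, 1434 to 1535) and 1249 CPM in Tom- (8881 UMIs, 1223 to 1275), a ratio of 1.19 (1.14 to 1.24). It was the fibroblast sub-cluster with the most Cxcl12 in each library. The next in Tom+, led by Pex5l, Sgcz and Npy1r, had 493 CPM in Tom+ against 335 CPM in Tom- (ratio 1.47, 1.33 to 1.63). Cells led by Cilp, Sfrp4 and Gpx3, the next in Tom-, had 445 CPM in Tom+ against 383 CPM in Tom- (ratio 1.16, 1.05 to 1.28). In Tom-, the 55 shallow cells led by Car3, Acta2 and Krt18 lay between these sub-clusters at 369 CPM, and the 1 such Tom+ cell held none.

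The remaining fibroblast sub-clusters had low levels and differed in both directions. Cells led by Tmem100, Tes and Efhd1 had 121 CPM in Tom+ against 173 CPM in Tom-, a ratio of 0.700 (0.593 to 0.823). Cells led by Bglap2, Chodl and Paqr6 had 165 CPM in Tom+ against 134 CPM in Tom- (ratio 1.23, 0.958 to 1.56), and those led by Car3, Cxcl14 and Dkk2 had 145 CPM in Tom+ against 181 CPM in Tom- (ratio 0.801, 0.530 to 1.16). Both of these intervals span 1. The Dpp4, Hp and Edn1 sub-cluster, with 14 Tom+ cells, had 97.2 CPM in Tom+ against 158 CPM in Tom-, a ratio of 0.614 that became 1.05 without shared barcodes. The equal-weight mean of the log2 ratios over the sub-clusters with at least 30 cells in each library was 0.16, against a log2 ratio of 0.90 for the class as a whole. Its direction turned, to -0.032, with Cxcl12, Cxcr4 and Ackr3 kept in the clustering.

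**Figure D2:**
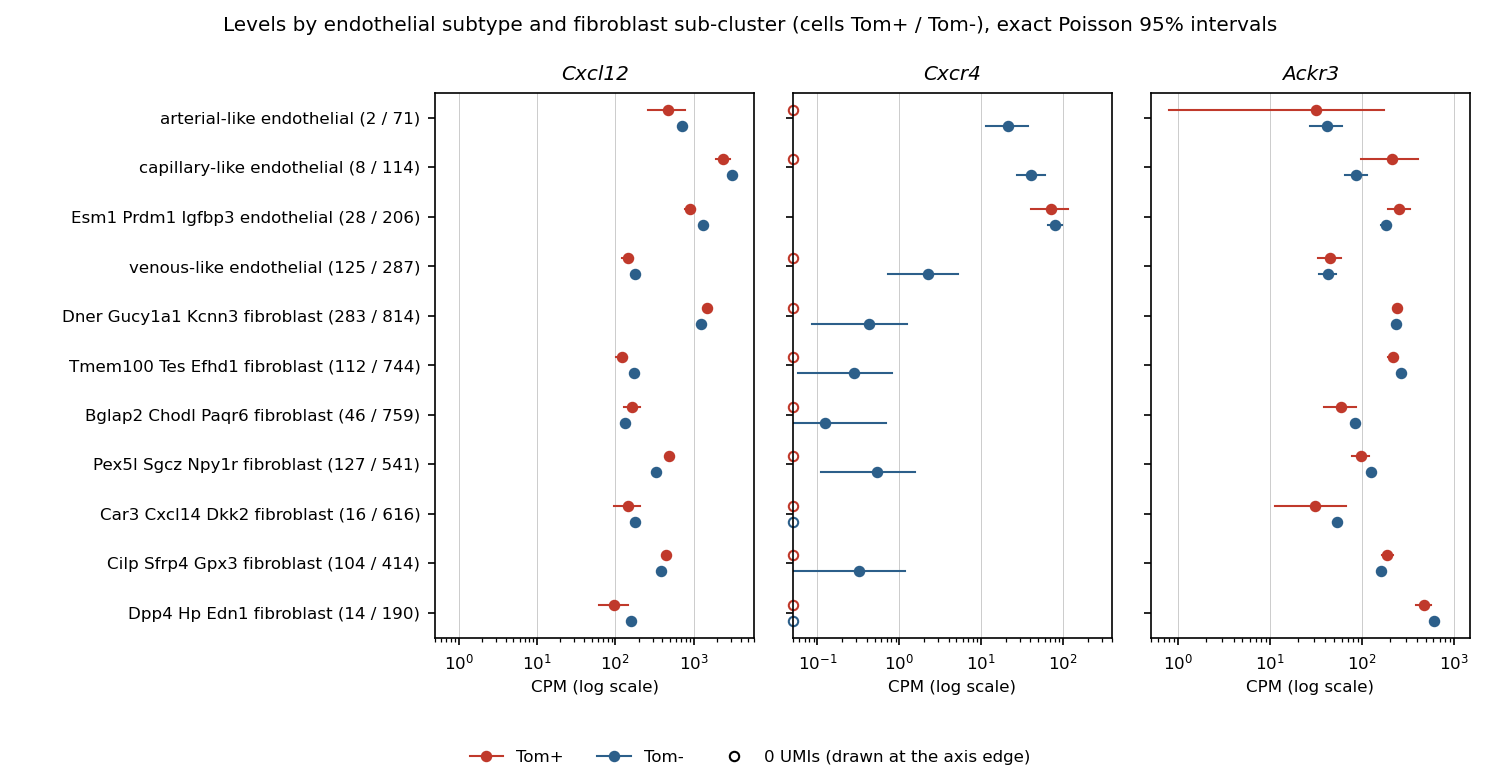
CPM (log axes) of Cxcl12, Cxcr4 and Ackr3 in 4 groups of endothelial-like cells (top) and 7 fibroblast sub-clusters, with Tom+ (red) above Tom- (blue), exact Poisson 95% intervals and cell numbers beside the names. Cxcl12 is highest in capillary-like cells (2382 CPM in Tom+, 3104 CPM in Tom-) and, among fibroblasts, in the Dner Gucy1a1 Kcnn3 sub-cluster, while Ackr3 is highest in the Dpp4 Hp Edn1 sub-cluster.

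The mix of sub-clusters differed between the libraries in the direction of the ligand-rich cells. The Dner sub-cluster made up 40.3% of Tom+ fibroblast-like cells (36.6 to 44.0%) and 19.7% of Tom- ones (18.5 to 20.9%), and its share of the Cxcl12 UMIs of used cells was 61.8% in Tom+ and 31.7% in Tom-. The ligand-poor Bglap2 and Car3 Cxcl14 Dkk2 sub-clusters made up 6.54% and 2.28% of Tom+ fibroblast-like cells, against 18.4% and 14.9% of Tom- ones. With each sub-cluster at its Tom- level, weighted by its share of Tom+ UMIs (cell numbers and depths together), the class would have stood at 599 CPM. That figure lies between the observed 701 CPM of Tom+ and 374 CPM of Tom-. The ratio of that figure to Tom- is 1.60, and the ratio of observed Tom+ to it is 1.17. Each mix is that of 1 library, so it is not known how it varies between animals.

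**Figure D3:**
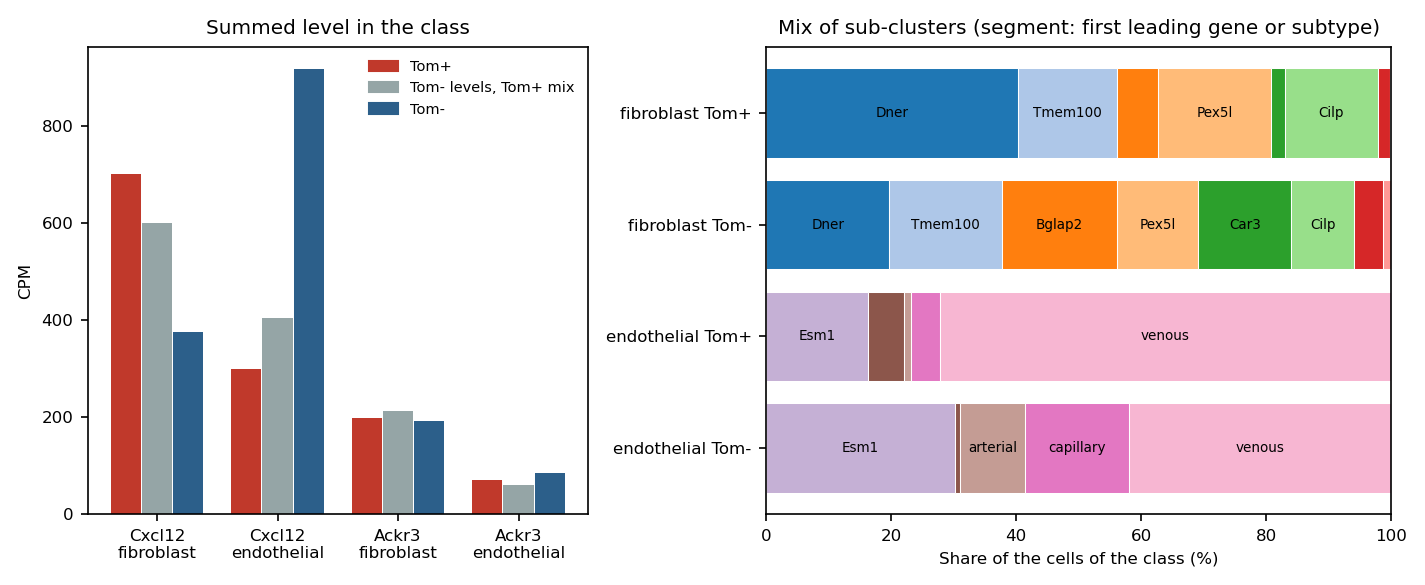
Left, CPM of Cxcl12 and Ackr3 in fibroblast-like and endothelial-like cells as observed in Tom+ (red) and Tom- (blue). Grey bars hold the Tom- level of each sub-cluster or subtype weighted by its share of the Tom+ UMIs of the class. Right, the share of each sub-cluster or subtype among the cells of its class in percent, Tom+ above Tom-, with segments over 9% named. The grey bars use shares of UMIs and do not follow from these shares of cells. For Cxcl12 the grey bar lies between Tom+ and Tom- in both classes, at 599 CPM in fibroblast-like and 404 CPM in endothelial-like cells.

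Blood vessel endothelium showed an order of Cxcl12 levels by vessel type. Capillary-like cells, recognised by all 10 capillary markers, had 2382 CPM in Tom+ against 3104 CPM in Tom-, a ratio of 0.767 (0.622 to 0.937), but the Tom+ value rests on 8 cells, of which 1 held 46 of the 101 UMIs. An unnamed sub-cluster led by Esm1, Prdm1 and Igfbp3 had 903 CPM in Tom+ (205 UMIs, 28 cells) and 1331 CPM in Tom- (1750 UMIs, 206 cells), a ratio of 0.679 (0.584 to 0.785). Arterial-like cells had 472 CPM in 2 Tom+ cells, where 1 cell held 12 of 15 UMIs, and 722 CPM in 71 Tom- cells. Venous-like cells had the lowest level, 145 CPM in Tom+ (125 cells) and 179 CPM in Tom- (287 cells), and the ratio was 0.813 (0.672 to 0.978). All 4 groups had less Cxcl12 in Tom+, and the differences within them were smaller than the one over the whole class. For arterial-like cells the interval of the ratio, 0.363 to 1.09, spans 1, and the direction turned without shared barcodes, when 1 Tom+ cell remained.

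Cxcl12 varied within the venous-like cells as well. Those led by Aplnr, Cysltr1 and Rasa4 had 251 CPM in Tom+ against 292 CPM in Tom-, and those led by Atf3, Socs3 and Dusp2 had 120 CPM in Tom+ against 155 CPM in Tom-, with intervals of the ratio from 0.681 to 1.08 and from 0.501 to 1.16. Those led by Cpe, Pla2g7 and F8 had 31.7 CPM in Tom+ (12 UMIs) and 96.9 CPM in Tom- (79 UMIs), a ratio of 0.327 (0.162 to 0.604). Of the 3 venous-like sub-clusters this was the one whose interval did not reach 1.

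The Tom+ endothelium was mostly venous-like. Venous-like cells made up 72.3% of Tom+ endothelial-like cells and 42.0% of Tom- ones. The Esm1 sub-cluster made up 16.2% of Tom+ and 30.1% of Tom- cells, capillary-like cells 4.62% of Tom+ and 16.7% of Tom- cells, and arterial-like cells 1.16% of Tom+ and 10.4% of Tom- cells. With Tom- levels and the Tom+ mix the class would have stood at 404 CPM, beside the observed 299 CPM of Tom+ and 916 CPM of Tom-. A further 10 Tom+ and 6 Tom- endothelial-like cells, led by Igfbp2, Ly6d and Gsta4, also held urothelial keratins and were deep. They carried 18.8% of the UMIs of the class in Tom+ and 5.08% in Tom-, and without them Cxcl12 was 343 CPM in Tom+ against 958 CPM in Tom-, a ratio of 0.358 (0.325 to 0.393). The 404 CPM includes these cells, at their Tom- level of 135 CPM and with their large share of Tom+ UMIs. Erythroid markers summed to 60.8 CPM in Tom+ against 912 CPM in Tom- endothelial-like cells, and fibroblast markers to 165 CPM in Tom+ against 947 CPM in Tom-; the part of the erythroid markers in the result was not tested.

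Against all measured genes, the Cxcl12 differences were large in both classes. A gene was measured when it reached 10 CPM in either library and 20 UMIs in the sum of both, and called when it was at least 1.5 times higher or lower in Tom+ with 1 CPM added. Of the 3 genes, 2 were measured in fibroblast-like cells, and 1 of these, Cxcl12, was called higher, where 1.34% of 8873 measured genes were (2.67% were called in either direction). Its log2 ratio of 0.90 was the 40th largest. In endothelial-like cells all 3 genes were measured, and 2 of them, Cxcl12 and Cxcr4, were called lower, where 9.15% of 9041 measured genes were (12.7% in either direction). Their log2 ratios of -1.61 and -1.49 were the 90th and the 110th lowest, beside a median over all measured genes of -0.11.

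Cxcr4, the signalling receptor, was rare after the removal of CD45-positive cells and lay almost wholly in endothelial-like cells. The used Tom+ cells held 17 Cxcr4 UMIs in 9 cells, and the used Tom- cells held 169 UMIs in 100 cells. Endothelial-like were all 9 of the Tom+ and 83 of the 100 Tom- cells, while 11 Tom- cells were fibroblast-like and 6 lay elsewhere. Ptprc, which encodes CD45, was found in none of the cells with Cxcr4, and in 0 Tom+ and 6 Tom- cells of all those used. The endothelial-like level was 9.84 CPM in Tom+ (5.73 to 15.75) and 29.5 CPM in Tom- (24.95 to 34.6), a ratio of 0.334 (0.189 to 0.553). Without shared barcodes this ratio was 0.390 (0.217 to 0.655). Cxcr4 was found in 5.202% of these cells in Tom+ and 12.1% in Tom-, and after thinning in 0.621% in Tom+ (1 cell) and 5.56% in Tom-.

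Within the endothelium Cxcr4 followed the Esm1 Prdm1 Igfbp3 sub-cluster. Esm1 is known as a marker of endothelial tip cells, and this sub-cluster had 70.5 CPM of Cxcr4 in Tom+ (16 UMIs, 8 of 28 cells) and 79.9 CPM in Tom- (105 UMIs, 52 of 206 cells). The ratio was 0.883 (0.487 to 1.501), so no difference was detectable at this depth. Capillary-like cells had 0 UMIs in Tom+, where 3 counts would be 70.7 CPM, and 41.1 CPM in Tom- (27 UMIs), and arterial-like cells had 0 in Tom+ and 21.6 CPM in Tom-. The Tom+ cells were too few for a comparison in either. Venous-like cells had 0 UMIs in Tom+, where 3 counts would be 2.72 CPM, and 2.22 CPM in Tom- (5 UMIs). With Tom- levels and the Tom+ mix of subtypes the class would have stood at 13.3 CPM, beside the observed 9.84 CPM of Tom+ and 29.5 CPM of Tom-.

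Outside the blood endothelium Cxcr4 was at or near 0. Fibroblast-like cells had 0 UMIs in Tom+, where 3 counts would be 0.459 CPM, and 13 UMIs (0.273 CPM) in Tom-, so a difference was not detectable. Lymphatic endothelial-like, umbrella and basal or intermediate urothelial-like cells had 0 UMIs in both libraries. For umbrella cells, the deepest class, 3 counts would be 0.207 CPM in Tom+ against 0.0576 CPM in Tom-. Over all used cells Cxcr4 stood at 0.515 CPM in Tom+ against 1.03 CPM in Tom-, a ratio of 0.4999 (0.285 to 0.825) whose interval reached 1.04 without shared barcodes.

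Ackr3, the scavenging receptor, was spread over more classes than Cxcr4, and its ratio lay near 1 in fibroblast-like cells, which held most of its UMIs, and below 1 in lymphatic endothelial-like cells. Fibroblast-like cells had 197 CPM in Tom+ (1289 UMIs) and 192 CPM in Tom- (9154 UMIs), a ratio of 1.03 (0.967 to 1.09), and endothelial-like cells had 70.6 CPM in Tom+ against 83.7 CPM in Tom-, a ratio of 0.843 (0.684 to 1.03). Both intervals span 1, and without shared barcodes the ratios were 0.961 and 0.953. Lymphatic endothelial-like cells, in which ACKR3 is known from mice to clear the peptide adrenomedullin, had 180.2 CPM in Tom+ (81 UMIs) and 258 CPM in Tom- (310 UMIs), a ratio of 0.699 (0.540 to 0.895). Their thinned share with Ackr3 was 20.5% in Tom+ and 36.7% in Tom-, and the unthinned share 49.4% in Tom+ and 58.2% in Tom-. The log2 ratio of Ackr3 in this class, -0.51, was the 1170th lowest of 8175 measured genes, beside a median of -0.01.

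Urothelial cells held a low but measurable level of Ackr3. Umbrella cells had 14.6 CPM in both libraries (212 UMIs in Tom+, 758 in Tom-; ratio 1.01, 0.860 to 1.17), and basal or intermediate cells had 33.1 CPM in Tom+ against 28.8 CPM in Tom-. The share of fibroblast markers in umbrella cells corresponds to 0.334 CPM of Ackr3 in Tom+ and 1.41 CPM in Tom-, beside the measured 14.6 CPM. The source of these counts was not tested. Mesothelial-like cells had 31.3 CPM in Tom+ against 32.7 CPM in Tom-, a ratio of 0.955 that became 1.51 (1.17 to 1.94) without shared barcodes, with 97 Tom+ cells left. Schwann-like Tom- cells stood at 89.5 CPM. Over all used cells Ackr3 stood at 59.9 CPM in Tom+ against 76.4 CPM in Tom-, a ratio of 0.784 (0.747 to 0.822), while the thinned share of cells with it was 15.0% in Tom+ and 14.5% in Tom-. Without shared barcodes that ratio was 0.846 (0.802 to 0.891).

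Among fibroblasts the peak of Ackr3 lay in a sub-cluster that was poor in Cxcl12. The Dpp4 Hp Edn1 sub-cluster had 474 CPM in Tom+ (117 UMIs, 12 of 14 cells) and 608 CPM in Tom- (1859 UMIs, 178 of 190 cells), a ratio of 0.779 (0.641 to 0.939). Of its cells, 7 of the 14 in Tom+ and 10 of the 190 in Tom- had shared barcodes, so the ratio rests on few Tom+ cells. Dpp4, a defining gene of this sub-cluster, encodes a peptidase that trims and inactivates CXCL12. The Dner sub-cluster, the richest fibroblast group in ligand, had 243 CPM of Ackr3 in Tom+ and 237 CPM in Tom- (ratio 1.03, 0.932 to 1.13), and the Tmem100 sub-cluster 215 CPM in Tom+ against 269 CPM in Tom- (0.801, 0.707 to 0.904). The Pex5l sub-cluster had 96.5 CPM in Tom+ against 124 CPM in Tom- (0.777, 0.616 to 0.971). Low levels were found in the Bglap2 sub-cluster, with 58.9 CPM in Tom+ against 84.6 CPM in Tom-, and the Car3 Cxcl14 Dkk2 sub-cluster, with 31.1 CPM in Tom+ against 53.9 CPM in Tom-, both with intervals that span 1. The 55 Tom- cells led by Car3, Acta2 and Krt18 had 70.4 CPM. In the Cilp sub-cluster the level was 189 CPM in Tom+, where 1 cell held 38 of 219 UMIs, and 161 CPM in Tom-, while the thinned share of cells was 17.0% in Tom+ and 25.3% in Tom-. Level and share disagree there, the ratio was 1.17 with and 0.852 without shared barcodes, and no order is read from them.

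In blood endothelium Ackr3 was highest in the same sub-cluster as Cxcr4. The Esm1 Prdm1 Igfbp3 cells had 256 CPM in Tom+ (58 UMIs) and 183 CPM in Tom- (241 UMIs), a ratio of 1.39 (1.03 to 1.86), and thinned shares of 35.7% in Tom+ and 26.7% in Tom-. Capillary-like cells had 212 CPM in Tom+, resting on 9 UMIs of 3 cells, against 86.8 CPM in Tom-. Venous-like cells had 44.4 CPM in Tom+ against 42.5 CPM in Tom-, a ratio of 1.04 (0.725 to 1.49). With Tom- levels weighted by Tom+ shares of UMIs, the Igfbp2 sub-cluster included, the endothelial-like class would have stood at 59.2 CPM. That is below both the observed 70.6 CPM of Tom+ and 83.7 CPM of Tom-.

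**Figure D4:**
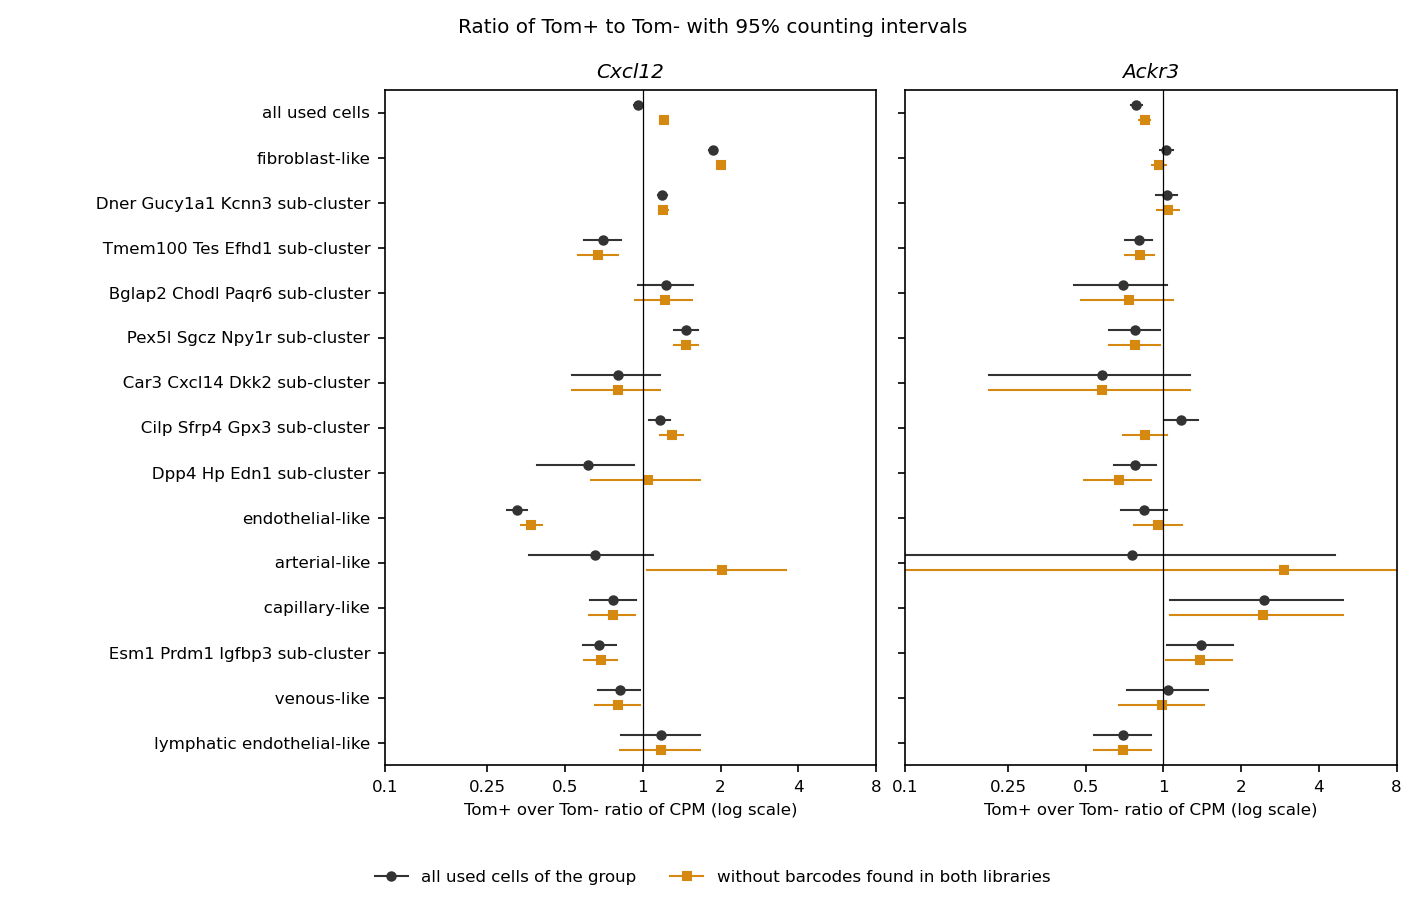
Ratio of Tom+ to Tom- CPM (log axes, line at 1) for Cxcl12 and Ackr3 in all used cells, fibroblast-like cells and 7 of their sub-clusters, endothelial-like cells and 4 of their groups, and lymphatic endothelial-like cells; circles use all cells, squares leave out shared barcodes, and lines are 95% counting intervals. For Cxcl12 the class ratios (1.87 and 0.326) lie farther from 1 than those of most sub-clusters, and for Ackr3 the class ratios (1.03 and 0.843) lie near 1.

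Ranked over the 16 classes and sub-groups with at least 20 Tom+ cells and the 25 with at least 20 Tom- cells, the orders of the genes differed. For Cxcl12 in Tom+ the order ran from the Dner sub-cluster (1484 CPM) to the Esm1 endothelial sub-cluster (903 CPM) and then to a shallow unnamed cluster led by Sult1e1, Penk and Apod (591 CPM), the Pex5l sub-cluster (493 CPM) and the Cilp sub-cluster (445 CPM), and the intervals of neighbours among these last 3 overlap. In Tom- capillary-like cells came first (3104 CPM), followed by the Esm1 sub-cluster (1331 CPM), the Dner sub-cluster (1249 CPM) and the Sult1e1 cluster (1188 CPM), and the intervals of neighbours among these last 3 overlap, which does not show that their levels are alike. Nearly all Tom+ cells of the Sult1e1 cluster, 77 of 78, had shared barcodes. For Ackr3 the first in Tom+ were the Esm1 (256 CPM), Dner (243 CPM), Tmem100 (215 CPM), Cilp (189 CPM) and lymphatic (180.2 CPM) groups, with overlapping intervals of neighbours. In Tom- the Dpp4 sub-cluster stood clear at 608 CPM, ahead of the Tmem100 (269 CPM), lymphatic (258 CPM) and Dner (237 CPM) groups. For Cxcr4 the Esm1 sub-cluster came first in both libraries and was the only one of the 16 Tom+ groups above 0, while 10 of the 25 Tom- groups were at 0.

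Ligand and receptors were also compared within cells, after thinning to 2000 UMIs. Of 652 Tom+ fibroblast-like cells, 358 held Cxcl12, and Ackr3 was found in 29.3% of these and in 24.8% of the others. Of 4007 Tom- fibroblast-like cells, 1516 held Cxcl12, and Ackr3 was found in 21.9% of these and in 24.0% of the others. Within most Tom- sub-clusters the shares lay farther apart. Ackr3 was found in 47.7% of the 44 Tom- Dpp4 cells with Cxcl12 and in 63.4% of those without it, in 24.2% and 33.3% in the Tmem100 sub-cluster, in 19.6% and 30.0% in the Cilp sub-cluster, in 12.4% and 19.9% in the Pex5l sub-cluster and in 8.33% and 14.9% in the Bglap2 sub-cluster. In the Tom- Dner sub-cluster it was found in 30.2% of cells with Cxcl12 and in 29.8% of those without, and in the Tom- Car3 Cxcl14 Dkk2 sub-cluster in 7.78% and 9.66%. In the 27 thinned Tom- cells led by Car3, Acta2 and Krt18 the shares ran the other way, at 35.7% and 0%. In Tom+ the shares were 34.2% with and 40.9% without Cxcl12 in the Dner sub-cluster and 30.8% and 32.5% in the Tmem100 sub-cluster. They were 17.1% and 14.8% in the Pex5l, 17.3% and 16.7% in the Cilp and 10% and 11.8% in the Bglap2 sub-cluster. Endothelial-like cells had Ackr3 in 21.8% with and 11.3% without Cxcl12 in Tom+, and in 18.3% and 11.0% in Tom-. Parts of the Tom- endothelium went both ways, at 25.5% and 31.0% in the Esm1 sub-cluster, 4.76% and 7.89% in venous-like cells and 17.6% and 6.25% in arterial-like cells. Capillary-like cells had 16.1% and 0%, but 93 of the 95 held Cxcl12. In Tom- endothelial-like cells Cxcr4 was found in 29 of 339 cells with Cxcl12 (8.55%) and in 1.84% of those without, so 29 of the 34 cells with receptor also held ligand. Within the Esm1 sub-cluster the shares with Cxcr4 were 12.8% and 7.14%, and in Tom- arterial-like cells they ran the other way, at 2.94% and 6.25%, with 3 cells with Cxcr4 in all. Ackr3 was found in 15 of 34 Tom- endothelial-like cells with Cxcr4 (44.1%) and in 13.3% of the others, and within the Esm1 sub-cluster in 12 of 22 (54.5%) and in 23.1%. In Tom+ only 1 thinned endothelial-like cell held Cxcr4, too few for these shares. Cells are not replicates, and these shares describe 1 library each.

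**Figure D5:**
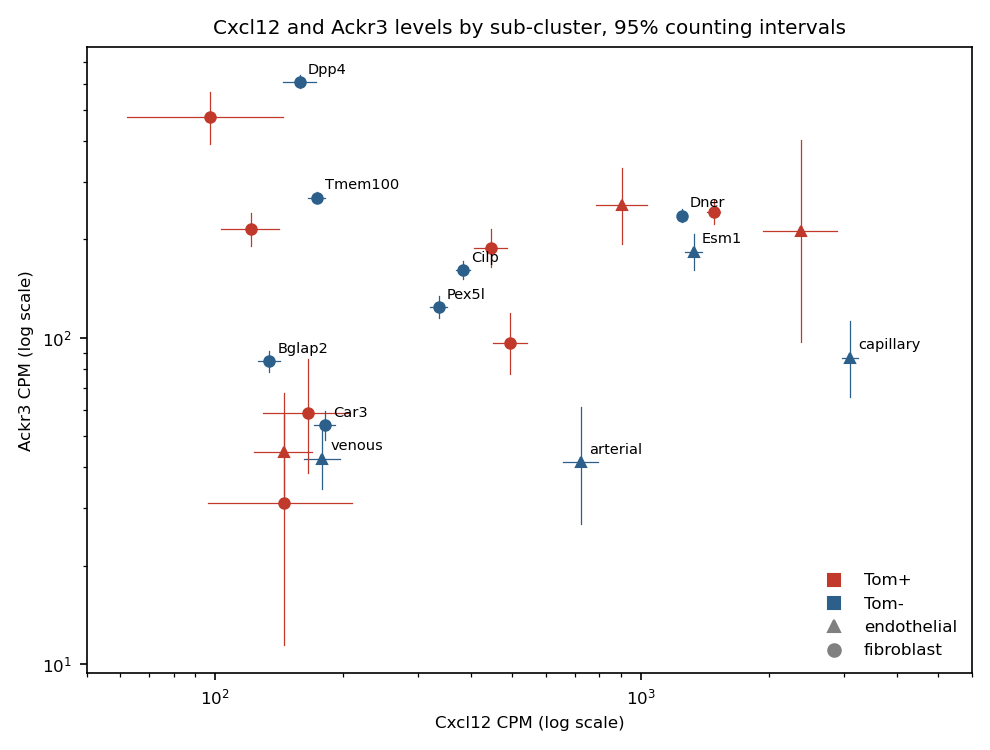
Ackr3 CPM (y axis, log scale) against Cxcl12 CPM (x axis, log scale) in 7 fibroblast sub-clusters (circles) and 4 endothelial groups (triangles) of Tom+ (red) and Tom- (blue), with 95% counting intervals; names stand at the Tom- points, and the 2 Tom+ arterial-like cells are not drawn. The Dpp4 sub-cluster lies at the top left (474 CPM of Ackr3 in Tom+, 608 CPM in Tom-), capillary-like cells lie at the far right, and the Dner and Esm1 groups are high in both genes.

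The rest of the pathway was followed in 8 lists of 59 genes, of which 58 had a feature: other ligands and receptors, enzymes that cleave CXCL12, heparan sulphate genes, G proteins, receptor kinases and arrestins, signalling partners and transcription factors. In fibroblast-like cells 42 of them were measured, and by the 1.5-fold rule 1 was higher in Tom+, 2 were lower and 39 lay between, where 1.34% and 1.33% of all measured genes were higher and lower. Their median log2 ratio was 0.03, beside -0.00 over all measured genes. The higher gene was Gpc3, a cell surface proteoglycan (229 CPM in Tom+, 146 CPM in Tom-, ratio 1.57, 1.49 to 1.66). The lower genes were Cxcl14, which encodes a chemokine reported to bind CXCR4 (106 CPM in Tom+, 483 CPM in Tom-, ratio 0.219, 0.202 to 0.236), and Calcrl, a receptor for adrenomedullin (104 CPM in Tom+, 175 CPM in Tom-, ratio 0.597, 0.552 to 0.646). Apart from the 55 shallow Tom- cells led by Car3, Acta2 and Krt18, both were most abundant in the Car3 Cxcl14 Dkk2 sub-cluster, which Cxcl14 helped to define, and in the Bglap2 sub-cluster, and each of these made up a smaller share of Tom+ than of Tom- fibroblast-like cells. Calcrl stood there at 374 CPM and 346 CPM in Tom+ and at 397 CPM and 275 CPM in Tom-, and in the Dner sub-cluster at 58.0 CPM in Tom+ against 69.5 CPM in Tom-.

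Within the lists, most fibroblast-like values lay close together in the libraries. Mif, an alternative ligand of CXCR4, had 153.7 CPM in Tom+ against 154.8 CPM in Tom-, and Hmgb1, whose protein forms a complex with CXCL12, had 713 CPM in Tom+ against 722 CPM in Tom-. Of the enzymes that cleave CXCL12, 4 of 6 were measured and none was called. Mmp2 had 410.0 CPM in Tom+ against 417 CPM in Tom-, Mmp14 361 CPM in Tom+ against 327 CPM in Tom-, Mmp3 53.4 CPM in Tom+ against 37.5 CPM in Tom-, and Dpp4 38.7 CPM in Tom+ against 45.2 CPM in Tom-. Dpp4 was concentrated in the sub-cluster it helped to define, at 482 CPM in Tom+ against 426 CPM in Tom-, where it stood at or under 42.2 CPM in Tom+ against 44.1 CPM in Tom- in each of the other fibroblast sub-clusters. The inhibitory G protein gene Gnai2 had 348 CPM in Tom+ against 397 CPM in Tom-, and the arrestin gene Arrb1 34.3 CPM in Tom+ against 33.6 CPM in Tom-. Of the 7 measured transcription factor genes none was called, and Ebf1, a transcription factor of bone marrow stroma in mice, had 255 CPM in Tom+ against 213 CPM in Tom- (ratio 1.20, 1.14 to 1.26).

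In endothelial-like cells 41 list genes were measured, of which 3 were called higher in Tom+, 6 were called lower and 32 lay between, where 3.52% and 9.15% of all measured genes were higher and lower. Their median log2 ratio was -0.11, the same as over all measured genes. Lower were Sox17, an arterial transcription factor gene (135 CPM in Tom+, 277 CPM in Tom-, ratio 0.486), Rgs5, a G protein regulator gene typical of pericytes (31.2 CPM in Tom+, 121 CPM in Tom-, ratio 0.258), Penk, whose opioid peptides bind ACKR3 (35.9 CPM in Tom+, 60.7 CPM in Tom-), Ext1, Mmp2 and Cxcl14. The 6 pericyte markers, Rgs5 among them, summed to 39.3 CPM in Tom+ against 182 CPM in Tom- endothelial-like cells, and their part in the Rgs5 value was not tested. The Mmp2 and Cxcl14 values lie under 5% of those of another class, a level at which free RNA cannot be told apart from expression. Higher was Nr2f2, which specifies veins (301 CPM in Tom+, 199 CPM in Tom-, ratio 1.51, 1.36 to 1.69). Within venous-like cells alone Sox17 stood at 113 CPM in both libraries and Nr2f2 at 395.5 CPM in Tom+ against 360 CPM in Tom-. Sox17 is among the arterial and Nr2f2 among the venous markers that named the subtypes, so these values are not independent of the naming. The other higher genes were the proteoglycan genes Sdc1 (61.9 CPM in Tom+, 25.7 CPM in Tom-) and Sdc4 (70.0 CPM in Tom+, 37.9 CPM in Tom-), of which Sdc4 also lies under 5% of another class. Of the 107 Sdc1 UMIs in Tom+, 97 lay in the 10 cells of the Igfbp2 sub-cluster with urothelial keratins, as did 105 of the 121 Sdc4 UMIs.

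The genes whose pattern was most like each member were found by Pearson correlation of log2(CPM + 1) among 5606 genes. It ran over 15 sums of a named class in a library, each of at least 50 cells, and unnamed clusters were not included. These correlations describe sums that share libraries and depth, and carry no test. For Cxcl12 they were Fam198b (0.966), Hspa12b (0.963), Fyn (0.947), Anpep (0.937) and Stard9 (0.937). For Cxcr4 they were Esm1 (0.979), Sox17 (0.971), Zfp366 (0.970), Sema3g (0.967) and C1qtnf9 (0.964), and for Ackr3 they were Klf4 (0.973), Lamb1 (0.952), Polr3gl (0.942), Zbtb20 (0.939) and Gnas (0.937). Of the 5 genes for each member, 3 for Cxcl12, 2 for Cxcr4 and 2 for Ackr3 were also among the 5 nearest by Spearman correlation. Fam198b, the nearest to Cxcl12, stood at 66.8 CPM in Tom+ against 51.5 CPM in Tom- fibroblast-like cells, and at 105.9 CPM in Tom+ against 154.8 CPM in Tom- endothelial-like cells.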

How the data were processed

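Cells of 1 mouse bladder were measured in 2 droplet libraries, Tom+ and Tom-, grouped by the sort named in the labels. The authors deposited raw UMI counts per gene and barcode, not normalized. The tools named in the submitters' processing notes are Cell Ranger 7.0.0 and, as build, mm10; per the file headers the software version is 3.0.2. Barcodes had been selected before deposit and hold at least 500 UMIs.

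Barcodes with at least 1000 UMIs, 500 genes and under 15% mitochondrial UMIs were kept (1893 Tom+, 10595 Tom-), and 12 Tom+ and 709 Tom- doublets called by Scrublet were left out, at an expected rate of 0.8% per 1000 cells. Cells were clustered with scanpy 1.11.5 and leidenalg 0.10.2 (2000 variable genes, 30 components, 15 neighbours, resolution 1; 0.5 for sub-clusters) under Python 3.11.15 with numpy 2.4.6, scipy 1.17.1, scikit-learn 1.9.0 and igraph 0.11.9. This gave 27 clusters. Of 21 marker lists, 16 served to name clusters, and the arterial, capillary and venous lists served to name endothelial sub-clusters. Clusters that did not meet the naming rule were left unnamed, and the rule was set with the data in hand. UMIs were summed per class and library, with exact Poisson intervals for CPM, conditional binomial intervals for ratios and Clopper-Pearson intervals for shares, all at 95%; a count of 0 is given with the level of 3 counts. Comparisons over all measured genes were made in the 6 classes that reached 50 cells in Tom+ and in Tom-. Cxcl12, Cxcr4 and Ackr3, the measured genes of 8 pathway lists, the 5 genes most like each member and the 3 leading genes of each sub-cluster could be named. The members and lists were chosen with earlier results of these data known. The arithmetic of the ratio and its interval was checked on simulated Poisson sums with known ratios. These sums lack the uneven spread between cells, so the check does not show that the intervals hold for these data.

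Other settings tried were stricter limits per cell (2000 UMIs, 1000 genes, 10% mitochondrial), doublets kept, shared barcodes left out, a per-cell marker gate, the members kept in clustering, resolutions of 0.5 and 0.8, cells weighted equally, scaling by TMM in edgeR 4.0.16, thinned cells, subtraction of 5% free RNA, 5 CPM as pseudocount and other filters on low values. Chosen after seeing the data were the inclusion of unnamed stromal clusters, a mean over endothelial sub-clusters of at least 20 cells, and leaving out the Tom+ cell with most UMIs or the endothelial sub-cluster with urothelial keratins.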

Additional observations from a re-analysis of the deposited data

Results flagged for a closer look

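Cxcl12 differed between the libraries in opposite directions in 2 cell classes. The ratio of Tom+ to Tom- was 1.87 in fibroblast-like cells, with 701 CPM in Tom+ against 374 CPM in Tom-. It was 0.326 in endothelial-like cells, with 299 CPM in Tom+ against 916 CPM in Tom-. With 1 library per group, the difference between the classes was not tested.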

How the results depend on the processing

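The Cxcl12 ratio in fibroblast-like cells lay between 1.52 and 2.01 under 12 alternatives. It was 1.80 with the stricter filter, 1.80 with doublets kept, 1.52 with the per-cell gate, 1.80 at the other resolution, 2.01 without shared barcodes, 1.81 with equal weight per cell and 1.76 with the unnamed stromal clusters. In endothelial-like cells it lay between 0.299 and 0.451, with 0.451 for doublets kept, 0.370 without shared barcodes, 0.370 with equal weight and 0.358 without the sub-cluster with urothelial keratins. The Ackr3 ratio in fibroblast-like cells fell on either side of 1, at 0.964 with doublets kept, 0.961 without shared barcodes, 1.10 with equal weight, 1.14 thinned and 1.11 with the unnamed stromal clusters. In endothelial-like cells Ackr3 stayed between 0.804 and 0.961. Cxcr4 in endothelial-like cells lay between 0.185, when thinned, and 0.512. The mean log2 ratio of Cxcl12 within fibroblast sub-clusters (0.16) was -0.032 with the members kept in clustering and 0.061 with equal weight. The mean within endothelial subtypes (-0.43) was -0.81 with the gate, 0.11 without shared barcodes and -0.73 thinned, and it rests on 2 arterial-like and 8 capillary-like Tom+ cells. The cause of these shifts was not tested. With no filter on low values 871 fibroblast-like and 3876 endothelial-like genes passed the 1.5-fold size in place of 237 and 1145, and with a filter of 50 CPM 68 and 261 did. No paired analysis was possible because each group is 1 library. Cells in the smallest groups limit the depth: Cxcr4 rests on 17 Tom+ UMIs.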
